A study of Mus musculus with 5 samples.

Results

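The 8 genes described here encode enzymes that make or interconvert the non-essential amino acids asparagine, proline, alanine, aspartate, glutamate and glutamine: Asns, Aldh18a1, Pycr1, Gpt, Gpt2, Got1, Got2 and Glul. They were listed by name, as 8 of the 52022 genes to which the measured transcripts belonged, with no threshold on their values but with earlier results of these data known. RNA came from interscapular brown adipose tissue (BAT) of 3 ATF4 BKO mice and 2 WT mice, 1 library per mouse. Both genotypes carried floxed Atf4 alleles (ATF4 fl/fl) on a C57Bl/6J background. ATF4 BKO mice also carried Cre under the Ucp1 promoter (Tg(Ucp1-cre)1Evdr), and WT mice were littermates without Cre. Cre from this promoter deletes Atf4 in thermogenic adipocytes, so that vascular, immune and other cells of the tissue keep the gene. All mice were 10 to 12 weeks old, labelled male and fed ad libitum, and had been kept at 30 °C for 7 days and then at 4 °C for 3 days. The comparison asks how BAT RNA differs between mice with and without adipocyte ATF4 in the cold. No library from mice kept warm was analysed here, so the values say nothing of the response to cold itself.

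ATF4 is a transcription factor whose translation increases when cells lack amino acids or when the mitochondria or the endoplasmic reticulum are under stress, and genes of amino acid supply are among its known targets. Asparagine synthetase (Asns), which makes asparagine from aspartate and glutamine, is the textbook example. Proline is made from glutamate by the enzyme of Aldh18a1 followed by a reductase. The enzyme of Aldh18a1 and the reductase of Pycr1 are mitochondrial. The aminotransferases move amino groups between glutamate and other amino acids: Gpt (cytosolic) and Gpt2 (mitochondrial) act on alanine, and Got1 (cytosolic) and Got2 (mitochondrial) act on aspartate and take part in the malate-aspartate shuttle. Glul is glutamine synthetase, which joins ammonia to glutamate.

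Because ATF4 acts through a short DNA element, the promoters of the enzymes were read for it before their RNA. The element searched was TGATGNAAN, the C/EBP-ATF response element, on both strands of the 300 bases around each start site in RefSeq (build GRCm38.p6, 250 bases before the start and 50 after). It was found in 3 of the 7 enzymes that the promoter table holds, Asns, Pycr1 and Got1, and in 3.95% of all 32851 promoters of the same length. The table held no entry for Gpt. No match lay in the windows of Aldh18a1, Gpt2, Got2 or Glul, and the cAMP response element, TGACGTCA, which 1.79% of all promoters hold, was in none of the 7. A match is a description of letters and not a measured binding site. The matches of the 3 genes are shown 5′ to 3′ on the strand of the gene, with the element in capitals and 10 bases on each side. The stretch of Asns is chr6:7693214-7693242, minus strand, in the 5′ UTR of Asns-201 as GENCODE annotates it, 23 to 15 bases before the RefSeq start. The stretches of Pycr1 (chr11:120643833-120643861, minus strand) and Got1 (chr19:43524690-43524718, minus strand) lie outside annotated exons, with the element 103 to 95 bases before the RefSeq start in both genes. In Got1 the element reads on the opposite strand, so its reverse complement is what the capitals show.
Asns: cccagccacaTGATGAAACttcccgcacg
Pycr1: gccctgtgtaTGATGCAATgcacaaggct
Got1: cattgcattgGTTGCATCAtacaagcctc

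For context, the sequence upstream of all annotated exons is given for Pycr1 (chr11:120643770-120643998, minus strand) and Got1 (chr19:43524606-43524855, minus strand), and for Aldh18a1 (chr19:40588464-40588713, minus strand), the proline enzyme whose window held no match. Each run ends at the base before the first annotated exon, and capitals again mark the element.
Pycr1 upstream: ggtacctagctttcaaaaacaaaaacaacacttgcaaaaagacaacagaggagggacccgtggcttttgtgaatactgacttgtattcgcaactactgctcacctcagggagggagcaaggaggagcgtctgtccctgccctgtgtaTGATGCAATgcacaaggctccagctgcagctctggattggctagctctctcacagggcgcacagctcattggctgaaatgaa
Got1 upstream: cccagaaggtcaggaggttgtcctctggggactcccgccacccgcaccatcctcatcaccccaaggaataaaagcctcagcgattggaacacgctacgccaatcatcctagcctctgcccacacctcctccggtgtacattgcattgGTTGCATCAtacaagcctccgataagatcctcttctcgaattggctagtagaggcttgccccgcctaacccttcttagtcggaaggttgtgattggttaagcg
Aldh18a1 upstream: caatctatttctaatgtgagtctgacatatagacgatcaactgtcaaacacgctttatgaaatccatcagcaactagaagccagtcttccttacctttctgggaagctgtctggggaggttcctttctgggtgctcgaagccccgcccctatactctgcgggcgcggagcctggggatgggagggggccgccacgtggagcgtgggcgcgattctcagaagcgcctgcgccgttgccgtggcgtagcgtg

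Libraries held between 24698337 and 32452751 estimated counts, and 16450 genes were tested, those that reached 10 counts in 2 or more libraries, all 8 enzymes among them. Levels are given as CPM, counts scaled for library size with TMM factors, for comparisons between mice, and as TPM, which is also scaled for transcript length, for comparisons between genes. The genotypes were set against each other in edgeR's quasi-likelihood test, with Benjamini-Hochberg adjustment over all 16450 genes and a threshold of 0.05. The deleted gene, Atf4, was at 32.6, 52.6 and 23.5 CPM in ATF4 BKO replicates 1, 2 and 3 and at 286 and 226 CPM in WT replicates 1 and 2. edgeR gave Atf4 a log2 fold change of -2.82 with an adjusted p of 0.671, and DESeq2's Wald test gave it an adjusted p of 9.7e-12. Several libraries stood apart. Xist, the RNA of the inactive X chromosome, was counted 4598 times in ATF4 BKO replicate 1 and no more than 7 times elsewhere, and 4 Y-linked genes together had 34 counts there and 3284 or more elsewhere, which goes against its label as male. All 12 brown adipocyte markers were detected, with a summed level of 28282 to 32953 TPM in ATF4 BKO mice and 28594 to 31573 TPM in WT mice. Of 26 skeletal muscle markers, 24 had all ATF4 BKO values below both WT values. Their summed level was 242 to 552 TPM in ATF4 BKO mice, 294 TPM in WT replicate 1 and 2838 TPM in WT replicate 2. Without Mb, the largest of them in each ATF4 BKO library, it was 113 to 137 TPM in ATF4 BKO mice, 276 TPM in WT replicate 1 and 2618 TPM in WT replicate 2. Macrophage markers summed to 395 to 1170 TPM in ATF4 BKO mice, 161 TPM in WT replicate 1 and 1055 TPM in WT replicate 2. None of the 26 muscle or 8 macrophage markers was at 0. In bulk RNA, fewer cells of a type and less RNA per cell cannot be told apart.

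Asns, Aldh18a1, Pycr1, Got1 and Got2 lay below both WT mice in every ATF4 BKO mouse. Glul was higher in every ATF4 BKO mouse, and the alanine aminotransferases overlapped between genotypes. Thus 5 of the 8 enzymes lay below both WT mice, where 10.6% of all genes tested did, and 1 of 8 lay above, where 8.95% did. The median log2 fold change of the 8 was -0.74, beside 0.0077 over all genes tested. None of the 8 passed edgeR's adjusted threshold, which 0% of genes passed as lower, the deleted gene Atf4 included. At an unadjusted edgeR p under 0.05, 3 of the 8 were lower (Asns, Aldh18a1 and Got2) and none higher, where 3.42% of all genes were lower and 5.23% differed in either direction. DESeq2's Wald test, the tool that the study names, called 1 of the 8 lower, Asns, and 0.608% of all genes lower.

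**Figure D1:**
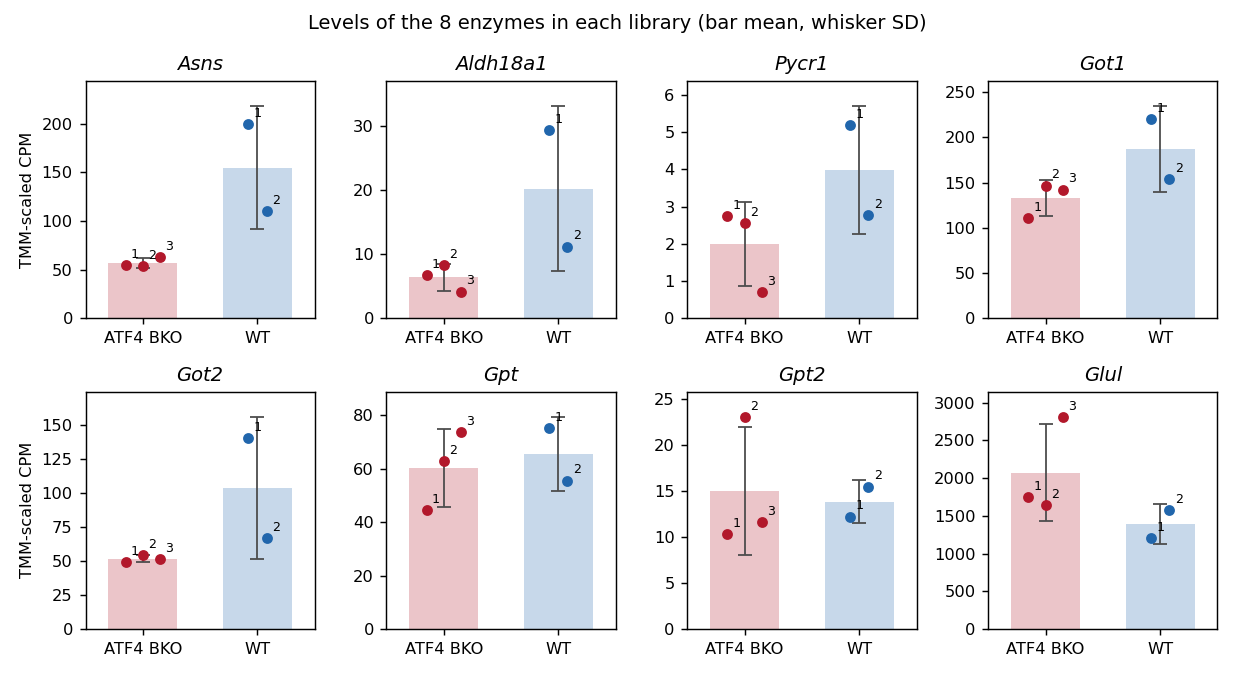
TMM-scaled CPM (y axes, from 0, each with its own range) of the 8 enzymes in 3 ATF4 BKO and 2 WT libraries; points are libraries with their replicate numbers, bars are means and whiskers are SD. Asns, Aldh18a1, Pycr1, Got1 and Got2 show every ATF4 BKO point below both WT points, with WT replicate 1 the highest point in each of these panels.

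Asns (ENSMUSG00000029752.12, GRCm38 chr6:7675169-7693254, minus strand) was at 54.3, 53.6 and 62.9 CPM in ATF4 BKO replicates 1, 2 and 3 and at 199 and 110 CPM in WT replicates 1 and 2. The ATF4 BKO mice lay close together, the highest 1.17 times the lowest, while WT replicate 1 was 1.80 times WT replicate 2, and the genotypes did not overlap. Group means were 56.9 ± 5.18 CPM (SD, n = 3) and 155 ± 62.8 CPM (SD, n = 2), and the fitted level in ATF4 BKO mice was 36.8% of that in WT mice. This gave a log2 fold change of -1.44 with a standard error of 0.25 and a 95% interval of -2.06 to -0.82, an unadjusted p of 0.00122 and an adjusted p of 0.671 with edgeR. DESeq2 gave the same gene an adjusted p of 0.00068, and over all 17 alternatives tried the adjusted p ran from 0.00068 to 0.997. Within the libraries that share a sample-name prefix the log2 difference was -1.88 for the first prefix (ATF4 BKO replicates 1 and 2 against WT replicate 1) and -0.81 for the second (ATF4 BKO replicate 3 against WT replicate 2). With WT replicate 1 left out it was -0.94, and with WT replicate 2 left out -1.82.

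Aldh18a1 and Pycr1, the proline enzymes of the set, were its least abundant members together with Gpt2. Aldh18a1 (ENSMUSG00000025007.13, chr19:40550257-40588463, minus strand), which makes the semialdehyde from which proline and ornithine derive, was at 6.71, 8.36 and 4.17 CPM in ATF4 BKO mice and at 29.4 and 11.2 CPM in WT mice. Both WT mice lay above all ATF4 BKO mice, and WT replicate 1 was 2.62 times WT replicate 2. The log2 fold change was -1.66 (SE 0.46, 95% interval -2.79 to -0.53), with an unadjusted p of 0.0114 and an adjusted p of 0.829 from edgeR, and DESeq2's adjusted p was 0.0784. Without WT replicate 1 the log2 fold change was -0.80.

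Pycr1 (ENSMUSG00000025140.15, chr11:120635712-120643769, minus strand), which reduces pyrroline-5-carboxylate to proline, had few reads, with 62, 72 and 21 counts in ATF4 BKO mice, against 164 and 94 in WT mice. These are 2.74, 2.56 and 0.71 CPM in ATF4 BKO mice and 5.19 and 2.77 CPM in WT mice. ATF4 BKO replicate 1 and WT replicate 2 were nearly level, so the absence of overlap rests on a narrow gap, and it was lost with DESeq2's size factors and on the TPM scale (2.53 TPM in the former, 2.19 in the latter). Its log2 fold change was -0.996 (SE 0.60), with a 95% interval of -2.45 to 0.46 that includes 0, and the adjusted edgeR p was 0.920.

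Pycrl (also named Pycr3), the cytosolic paralogue of Pycr1, was close to level between genotypes, with a log2 fold change of -0.077 (95% interval -0.45 to 0.30). Per length, Pycrl was above Pycr1 in every library, at 27.5, 28.0 and 28.9 TPM in ATF4 BKO mice and 36.6 and 30.6 TPM in WT mice. The values of Pycr1 therefore do not stand for all reductases of this family.

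The breakdown side of proline and the ornithine branch were measured as well. Prodh, which oxidizes proline, was at 15.3, 46.1 and 71.2 CPM in ATF4 BKO mice and 30.2 and 19.1 CPM in WT mice, so that ATF4 BKO replicate 1 lay below both WT mice and the other two above them. Its log2 fold change was 0.84 (95% interval -0.64 to 2.33). Aldh4a1, the next enzyme of proline breakdown, had a log2 fold change of 0.042 (95% interval -0.69 to 0.77), 31.03% of its 31-base words being shared with the gene model Gm21969, and Oat, which links ornithine to the same semialdehyde, one of 0.064 (95% interval -0.31 to 0.44).

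Both aspartate aminotransferases had lower values in ATF4 BKO mice, with the lower fold change in the mitochondrial enzyme. Got2 (ENSMUSG00000031672.8, chr8:95864134-95888547, minus strand) was at 49.2, 54.1 and 51.1 CPM in ATF4 BKO mice and at 140 and 66.7 CPM in WT mice. The ATF4 BKO values were within 1.10 times of each other, whereas WT replicate 1 was 2.10 times WT replicate 2. Its log2 fold change was -1.01 (SE 0.30, 95% interval -1.73 to -0.28), with an unadjusted p of 0.0144 and an adjusted p of 0.844 from edgeR. It was -0.36 without WT replicate 1 and -1.46 without WT replicate 2.

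Got1 (ENSMUSG00000025190.13, chr19:43499752-43524605, minus strand) was at 111, 147 and 142 CPM in ATF4 BKO mice and at 221 and 154 CPM in WT mice. ATF4 BKO replicate 2 lay just below WT replicate 2, and WT replicate 1 was the highest. The log2 fold change was -0.49 (SE 0.21, 95% interval -1.002 to 0.022), with an adjusted edgeR p of 0.911, and it was -0.20 without WT replicate 1. Got1 made up 78.4, 80.4 and 80.5% of the summed TPM of Got1 and Got2 in ATF4 BKO mice, against 69.9 and 77.7% in WT mice. Every ATF4 BKO share was thus above both WT shares, by 5.96 percentage points between the means, with p = 0.1 in an exact two-sided permutation test, the smallest p that 3 against 2 libraries allow. In shares of estimated counts the groups overlapped (exact permutation p = 0.3), and without WT replicate 1 the difference in TPM shares was 2.06 percentage points. The TPM shares include Got1-203, a noncoding transcript with a retained intron. It held 31.2% of Got1 TPM in ATF4 BKO replicate 1 and 23.3% in WT replicate 2. With the coding transcripts Got1-201 and Got2-201 alone, the TPM shares overlapped too. ATF4 BKO replicate 1 (55.4 and 21.8 TPM) then lay below WT replicate 2 (97.5 and 36.2 TPM). ATF4 BKO replicates 2 and 3 stayed above both WT shares.

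**Figure D2:**
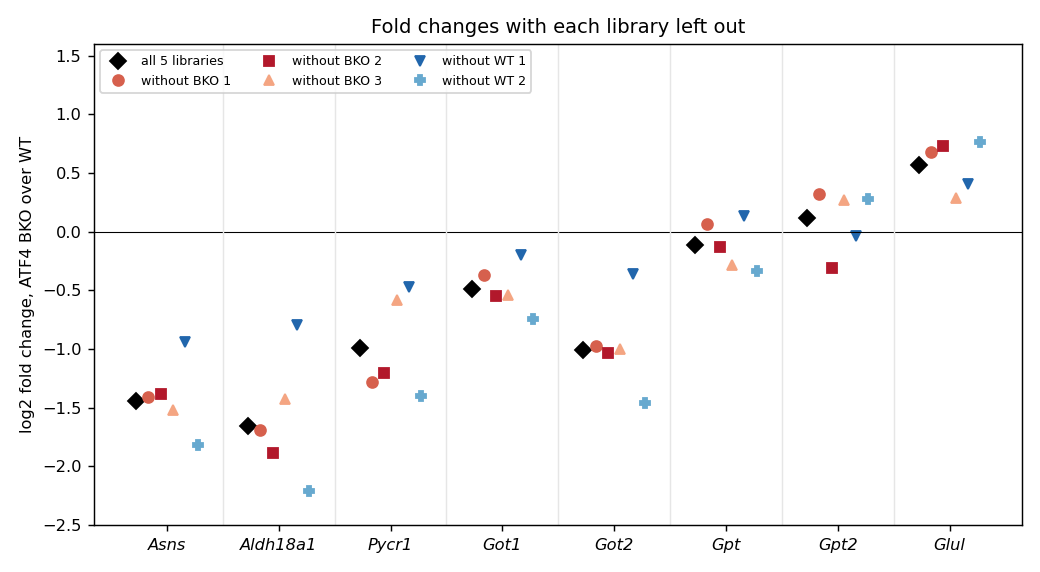
Log2 fold change of ATF4 BKO over WT (y axis) for each enzyme (x axis) from all 5 libraries (diamonds) and with 1 library left out in turn (other symbols). For Asns, Aldh18a1, Pycr1, Got1 and Got2 the fold change was nearest to 0 without WT replicate 1 and farthest from 0 without WT replicate 2; Gpt and Gpt2 cross 0.

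The alanine aminotransferases did not separate the genotypes. Gpt (ENSMUSG00000022546.5, chr15:76695716-76699686, plus strand) was at 44.6, 62.9 and 73.6 CPM in ATF4 BKO mice and at 75.3 and 55.6 CPM in WT mice. WT replicate 2 lay below ATF4 BKO replicates 2 and 3. The log2 fold change was -0.12 (95% interval -0.72 to 0.48), and it was above 0 without ATF4 BKO replicate 1 (0.061) and without WT replicate 1 (0.13).

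Gpt2 (ENSMUSG00000031700.11, chr8:85492576-85527560, plus strand) was at 10.3, 23.0 and 11.6 CPM in ATF4 BKO mice and at 12.2 and 15.5 CPM in WT mice. The high value of ATF4 BKO replicate 2 set the direction, with a log2 fold change of 0.12 (95% interval -0.80 to 1.03) that became -0.31 without that mouse and -0.040 without WT replicate 1. Of the summed TPM of Gpt and Gpt2, the mitochondrial enzyme held 10.5, 18.7 and 6.40% in ATF4 BKO mice, against 6.22 and 13.7% in WT mice, overlapping ranges with a difference of 1.91 percentage points (exact two-sided permutation p = 0.8). Both intervals span 0 and are wide, so a difference within them was not detectable with these libraries.

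Glul (ENSMUSG00000026473.15, chr1:153899944-153909723, plus strand) was the most abundant enzyme of the set and the one whose CPM was higher in every ATF4 BKO mouse. It was at 1754, 1644 and 2809 CPM in ATF4 BKO mice and at 1207 and 1581 CPM in WT mice. ATF4 BKO replicate 3 was the highest and WT replicate 1 the lowest, and ATF4 BKO replicate 2 lay just above WT replicate 2. On the TPM scale the groups overlapped, with 707, 762 and 1176 TPM in ATF4 BKO mice and 606 and 783 TPM in WT mice. For Glul the log2 fold change was 0.57 (SE 0.30, 95% interval -0.15 to 1.29), with an adjusted edgeR p of 0.911, and it was 0.29 without ATF4 BKO replicate 3.

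Levels per length placed the enzymes over a wide range. Over all 5 libraries, mean TPM ran in the order Glul (807), Got1 (118), Asns (71.9), Gpt (52.1), Got2 (36.7), Gpt2 (6.48), Aldh18a1 (5.86) and Pycr1 (2.30), which are ranks 156 to 11051 among the 16450 genes tested. Only the steps from Glul to Got1 and from Got2 to Gpt2 separated the ranges of neighbouring genes over the 5 libraries, and the other neighbours overlapped. The place of Asns differed between the genotypes. In both WT mice it was above Gpt (143 and 91.2 TPM against 65.2 and 50.7), whereas in 2 of 3 ATF4 BKO mice Gpt was above Asns (39.6, 40.8 and 45.4 TPM of Asns against 35.7, 52.0 and 57.0 of Gpt).

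**Figure D3:**
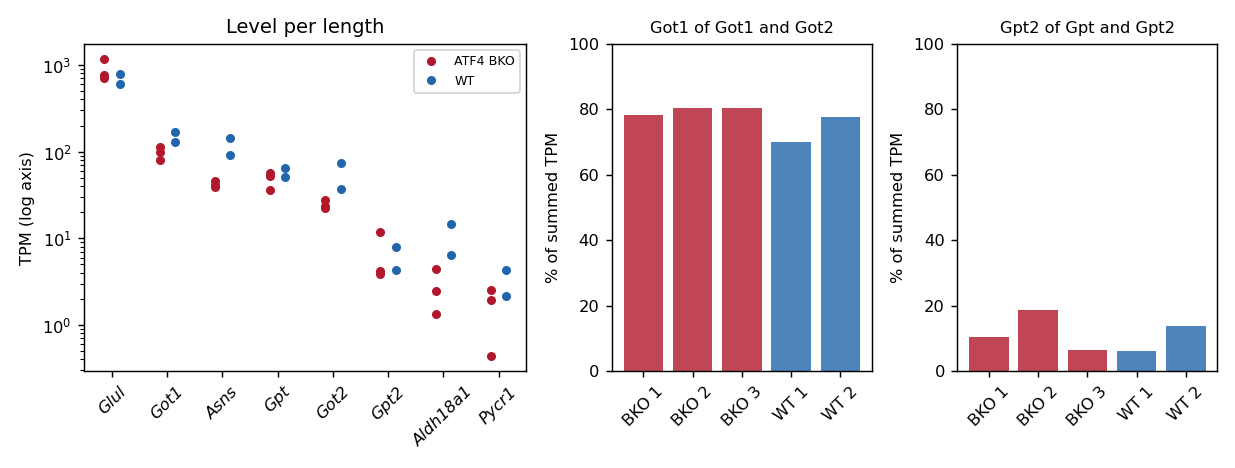
Left, TPM (log axis) of the 8 enzymes in order of their mean, 1 point per library; middle and right, the percent of summed TPM held by Got1 among Got1 and Got2 and by Gpt2 among Gpt and Gpt2 in each library. Glul stands alone at 606 to 1176 TPM, and the Got1 share is lowest in WT replicate 1, at 69.9%.

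The profiles of the enzymes across the 5 libraries were compared in pairs. Likeness was measured as the root-mean-square difference between 2 profiles of log2 CPM, each centred on its own mean over the 5 libraries, so that smaller is more alike. Among the 8, the closest pairs were Gpt and Got1 (0.21), Asns and Got2 (0.26) and Got1 and Got2 (0.29), and the farthest were Aldh18a1 and Glul (1.30). Of the 9249 genes with a mean log2 CPM of at least 3, the 5 with profiles most like that of Asns were Cyb5r1 (0.15), Yars (0.15), Nars (0.18), Wars (0.19) and Ero1l (0.20). Yars, Nars and Wars encode the tyrosyl, asparaginyl and tryptophanyl tRNA synthetases of the cytosol, and Ero1l an oxidase of the endoplasmic reticulum. For Nars, whose enzyme attaches asparagine to its tRNA, levels were 64.1, 77.4 and 69.7 CPM in ATF4 BKO mice and 205 and 114 CPM in WT mice. These values describe 5 libraries in 2 groups and carry no test. Genes that vary little score as alike by this measure. The value for typical pairs of genes is not given, so how unusual these pairs are was not tested.

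The 22 measured neighbours of these enzymes, out of 29 breakdown enzymes, other aminotransferases, shuttle members and carriers listed, had a median log2 fold change of 0.032, with 9 lower and 13 higher in ATF4 BKO mice. None passed edgeR's adjusted threshold, 2 lay below both WT mice in every ATF4 BKO mouse (Psat1 and Mdh1), beside 10.6% of all genes, and 2 lay above (Aspg and Kyat3), beside 8.95%, so both counts were near the background. DESeq2 called 1 of the 22 lower, Psat1, and 0.608% of all genes lower. At an unadjusted edgeR p under 0.05, 2 were lower (Psat1 and Mdh1) and 1 higher (Aspg). Of all genes, 3.42% were lower at that level and 5.23% differed in either direction. The 7 that were not tested had too few counts: Prodh2, Gls2, Aadat, Agxt, Agxt2, Tat and Slc25a18.

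**Figure D4:**
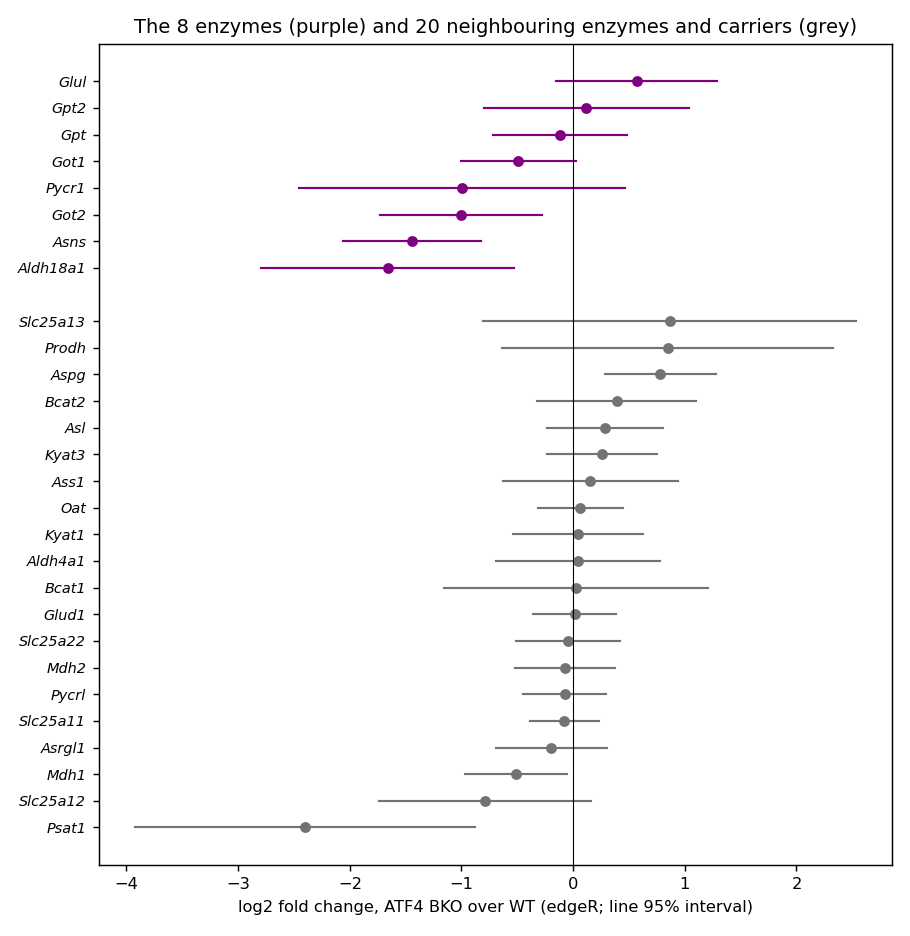
Log2 fold change of ATF4 BKO over WT with its unadjusted 95% interval (x axis) from edgeR for the 8 enzymes (purple) and 20 of the neighbouring enzymes and carriers (grey). The intervals of Asns, Aldh18a1 and Got2 lie below 0, as do those of Psat1 and Mdh1, and that of Aspg lies above 0.

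Of 2 enzymes of asparagine breakdown, 1 lay in the direction opposite to Asns. Aspg, which hydrolyses asparagine to aspartate and ammonia, was at 425, 298 and 416 CPM in ATF4 BKO mice and at 206 and 236 CPM in WT mice. All ATF4 BKO mice were above both WT mice, and the spread within each genotype was smaller than the gap between their means. For Aspg the log2 fold change was 0.78 (SE 0.20, 95% interval 0.29 to 1.28), with an unadjusted p of 0.00832, an adjusted edgeR p of 0.771 and a DESeq2 adjusted p of 0.0951. It was 0.79 within the first prefix and 0.82 within the second. Per length, Aspg was above Asns in every library, at 297, 243 and 324 TPM in ATF4 BKO mice and at 166 and 206 TPM in WT mice. Asrgl1, a second enzyme that breaks down asparagine, overlapped between genotypes with a log2 fold change of -0.20 (95% interval -0.70 to 0.30).

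Psat1, the aminotransferase of serine synthesis, which takes its amino group from glutamate, was at 6.27, 11.4 and 4.65 CPM in ATF4 BKO mice and at 62.7 and 15.9 CPM in WT mice. WT replicate 1 was thus far above every other library. The log2 fold change was -2.40 (SE 0.62), with an adjusted p of 0.771 from edgeR's test and of 0.0136 from DESeq2's, and it was -1.09 without WT replicate 1. The list of 11 serine and one-carbon enzymes to which Psat1 belongs had a median log2 fold change of -0.69. Without WT replicate 1 that median was -0.15. Of the 11, 10 had a log2 fold change below 0, as did 8025 of the 16450 genes tested. In 5 of them all ATF4 BKO mice lay below both WT mice, where 10.6% of all genes tested did. At an unadjusted edgeR p under 0.05, 4 of the 11 were lower, where 3.42% of all genes were. edgeR's adjusted threshold called 0 of the 11. DESeq2 called 3 lower, and 0.608% of all genes lower.

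In the malate-aspartate shuttle, Got1 and Got2 act with the malate dehydrogenases and 2 kinds of mitochondrial carrier. Of its 7 genes, 6 had a log2 fold change below 0, Got1 and Got2 among them, and Slc25a13 had one above 0. Over all genes tested, 8025 of 16450 were below 0. None of the 7 passed edgeR's adjusted threshold. Mdh1, the cytosolic malate dehydrogenase, was at 78.9, 76.1 and 81.8 CPM in ATF4 BKO mice and at 135 and 90.2 CPM in WT mice, without overlap and with a log2 fold change of -0.51 (SE 0.19, unadjusted p of 0.0335, adjusted edgeR p of 0.911). Mdh2, its mitochondrial counterpart, had a log2 fold change of -0.073 (95% interval -0.52 to 0.38), and the carrier gene Slc25a11 one of -0.080 (95% interval -0.39 to 0.23). Of the aspartate-glutamate carriers, Slc25a12 was at 7.24, 12.8 and 6.87 CPM in ATF4 BKO mice and at 10.6 and 20.4 CPM in WT mice, highest in WT replicate 2, where muscle markers were also highest. Its log2 fold change was -0.79 (95% interval -1.74 to 0.16), and 0.56 with the mean muscle marker level as a covariate, a level that did not overlap between the genotypes. Slc25a13 had only 14 to 91 counts per library, with a log2 fold change of 0.86 (95% interval -0.81 to 2.54).

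Glutamate is also made and drained by Glud1, glutamate dehydrogenase, which was close to level, with a log2 fold change of 0.012 (95% interval -0.36 to 0.38). The 18 enzymes of the tricarboxylic acid cycle, into which this reaction leads, had a median log2 fold change of 0.048. Of these, 7 were lower and 11 higher, beside 8025 lower and 8425 higher over all genes tested. Below both WT mice in every ATF4 BKO mouse lay 1 of the 18, where 10.6% of all genes did.

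The size of the differences depended on WT replicate 1. It held the highest level of Asns, Aldh18a1, Pycr1, Got1 and Got2 among the 5 libraries and the lowest of Glul, and the median log2 fold change of the 8 enzymes was -0.28 without it and -1.07 without WT replicate 2. Within prefixes the median was -0.87 for the first and -0.40 for the second. The first and second prefix gave -1.96 and -1.41 for Aldh18a1, -0.95 and -1.87 for Pycr1, -1.44 and -0.38 for Got2 and -0.79 and -0.11 for Got1. For Glul they gave 0.49 and 0.83, whereas for Gpt (-0.51 and 0.41) and Gpt2 (0.34 and -0.41) the sign differed between prefixes. With the mean level of the muscle markers as a covariate, the log2 fold change was -2.27 for Asns (adjusted edgeR p of 0.0278), -2.45 for Aldh18a1 and -1.86 for Got2, each farther from 0 than in the fit without the covariate. That mean was -0.46, 0.90 and -0.82 log2 CPM in ATF4 BKO replicates 1, 2 and 3, and 2.40 and 6.30 in WT replicates 1 and 2. The covariate thus did not overlap between the genotypes, so this fit cannot tell muscle level and genotype apart. The macrophage markers, lowest in WT replicate 1, were not a term in any fit, and their part in these differences was not tested. Without ATF4 BKO replicate 1, the library whose Xist count went against its label, the log2 fold changes were -1.41 for Asns, -1.69 for Aldh18a1, -1.28 for Pycr1, -0.37 for Got1, -0.98 for Got2 and 0.68 for Glul.

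Shares of TPM by annotated transcript showed which isoforms held the level per length. The full-length coding transcript Asns-201 held 72.3 to 93.0% of the TPM of Asns, its share being highest in WT replicate 1, and the short noncoding Asns-206 held 6.75 to 24.3%. Got1-203, a transcript with a retained intron, held 19.2 to 31.2% of Got1, and Got2-201 and Glul-201 held at least 97.9% and 91.8% of their genes. Shares of TPM weigh short transcripts more than counts do. In estimated counts, on which CPM rests, transcripts not annotated as coding held 1.04 to 4.25% of Asns and 6.28 to 10.3% of Got1. In Gpt the coding transcripts Gpt-201 and Gpt-205, of nearly equal length (1792 and 1772 bases), held shares of the estimated TPM that varied between libraries. Gpt-201 held 49.0, 54.8 and 37.9% in ATF4 BKO mice, against 33.6 and 17.5% in WT mice, while Gpt-205 held 1.48e-05, 11.5 and 25.6% in ATF4 BKO mice, against 35.9 and 49.0% in WT mice. Neither range overlapped between the genotypes, and the share of all transcripts that lie apart in this way is not given. This pair was picked after its values were seen and was not tested, and pseudo-alignment splits reads between such similar transcripts by estimation.

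**Figure D5:**
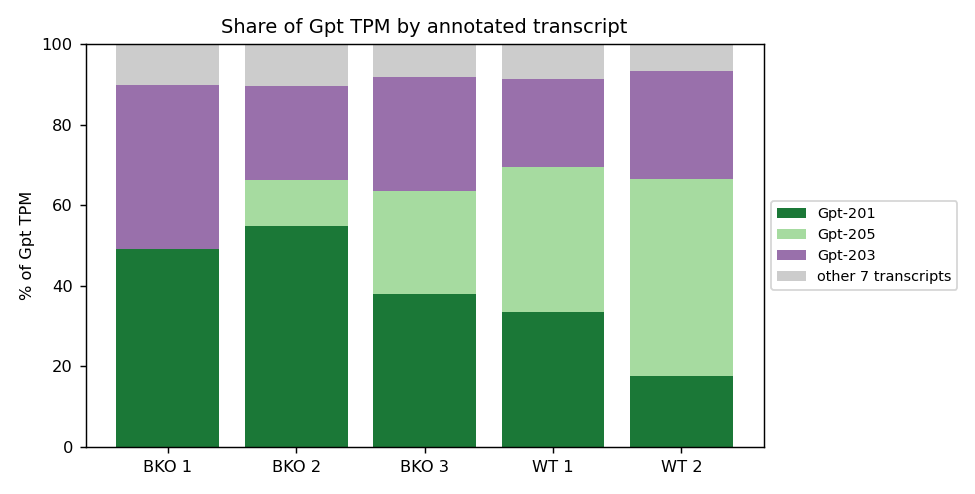
Percent of the TPM of Gpt (y axis) held by 3 coding transcripts and by the other 7 annotated transcripts together in each library (x axis). Gpt-205 is largest in the WT libraries, at 35.9 and 49.0%, and Gpt-201 in the ATF4 BKO libraries, at 37.9 to 54.8%.

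Got2 and Glul share part of their sequence with pseudogenes. Of the 31-base words in the transcripts of Got2, 20.3% also occur in other genes, chiefly the pseudogene Got2-ps1, which received at most 5 counts in a library, and of those of Glul 19.7% do, chiefly in Glns-ps1, which received at most 8. No word of Asns, Aldh18a1, Gpt or Got1 was shared, and in Pycr1 and Gpt2 the shares were 1.48% and 3.61%.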

How the data were processed

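BAT RNA of 3 ATF4 BKO and 2 WT mice was analysed. Per the labels and the study's methods, the authors pseudo-aligned the reads with kallisto 0.45.0 and deposited, for each mouse, estimated counts per transcript without normalization between mice. The deposited TPM values are the same counts divided by effective length and scaled to 1 total per library. Effective length was 199 bases below the transcript length for 93.4% of transcripts in each library. The submitters' notes name mm10; the transcript annotation is not given in the sources used here.

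Of 141450 transcripts, 138191 matched GENCODE M21 (GRCm38) by identifier; the other 3259 held 1.16 to 1.29% of counts and were not used. Gene values are rounded sums over transcripts. edgeR 4.0.16 (R 4.3.3) was used for TMM scaling and the quasi-likelihood test, in a model of genotype alone; the common dispersion was 0.0758, with 3 residual and 3.06 prior degrees of freedom. Intervals are at 95% and unadjusted. With 2 WT libraries, the spread within that genotype rests on 1 pair. Alternatives were DESeq2 1.42.0 (Wald test), limma 3.58.1 on log2(TPM + 1) and log2(TPM + 0.1), other scalings, filters and transcript sets, blocks, a muscle covariate and leaving out each library. The scripts were tested on simulated data. No pair of libraries was a repeat: chi-square values per degree of freedom were 49.9 or more.

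The 8 enzymes, the neighbouring enzymes and the marker lists were chosen with earlier results of these data known. Named neighbours are Pycrl (listed under its newer name Pycr3), Prodh, Aldh4a1, Oat, Glud1, Mdh1, Mdh2, Slc25a12 and Slc25a13. Any other listed gene with an unadjusted edgeR p under 0.05 or a DESeq2 call is named too. Asrgl1, Kyat3, Slc25a11, Cacna1i, Gm9794 and the untested ones were named after their values were seen. Some listed genes, counted with the neighbours, are not reported here by name. Columns were taken per file, each file holding 1 sample.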

Additional observations from a re-analysis of the deposited data

How the results depend on the processing

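Asns, Aldh18a1, Pycr1, Got1 and Got2 were lower and Glul higher in all 17 alternatives. Gpt and Gpt2 changed direction in some: leaving out a library gave log2 fold changes of -0.33 to 0.13 for Gpt and -0.31 to 0.32 for Gpt2, and for Gpt2 limma gave -0.0075 with log2(TPM + 1) and -0.022 with log2(TPM + 0.1). The Gpt2 share of the alanine aminotransferases differed by -1.82 to 5.64 percentage points with a library left out. Asns passed the threshold with DESeq2 (-1.44) and with the muscle covariate (-2.27), whose level did not overlap between the genotypes. The median of the 8 enzymes was -1.13 with that covariate, -0.40 within the second prefix and -1.07 to -0.28 with a library left out. The number of the 8 below both WT mice was 5 or 6 with a library left out, and 4 with DESeq2's size factors, length-scaled TPM or log2 TPM, where Pycr1 overlapped. Groups of fewer libraries lie apart more readily, so the 10.6% of all genes does not apply with a library left out. The share of all genes is not given for these settings.

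Over all genes, edgeR called 1, Cacna1i (860 at an unadjusted p under 0.05), DESeq2 121, edgeR without the count filter 8, limma on log2(TPM + 0.1) 2 (Cacna1i and Gm9794) and the muscle covariate 195. Limma on log2(TPM + 1) called 0 (1431 unadjusted), the replicate block 0 (711) and the prefix block 0 (876). With a library left out, 0 to 23 were called, the most without WT replicate 1, and 0 without ATF4 BKO replicate 1, 2 or 3 (794, 1101 and 506 unadjusted). Same-numbered mice share only a number: their deviations correlated at 0.047 and 0.20, and the replicate block gave -1.46 for Asns. The cause of these shifts was not tested. Library totals alone moved the median of all genes to -0.099, and the TPM scales to -0.12 and -0.17. Depth limits Pycr1 and Slc25a13 most, and 2 WT mice limit every gene.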
